A study of Mus musculus with 12 samples.

Results

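The libraries compared here were made from the ileum, the last stretch of the small intestine, of 6 female mouse pups on postnatal day 14. They are 6 of the 12 samples of the series and were taken by label alone, as the female pup of each dam. The other 6 samples are male littermates. All animals were of the C57BL/6 strain (bought-in pregnant C57BL/6J dams). For the stressed group, 3 pregnant dams were restrained daily in a ventilated tube, 2 h each time, between gestational days 7 and 19, and for the control group 3 dams stayed undisturbed in their home cages. Each dam gave 1 of these pups, so that the group of stressed females and the group of control females hold 3 litters each. The word stressed refers to the dam, since the pups themselves were not restrained. The number of a pup is the number of its dam. RNA came from whole ileal tissue, in which fewer cells of a type and less RNA per cell cannot be told apart. The labels name no fostering, so that effects before birth and effects of later care by the same dam cannot be told apart.

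A mouse pup of this age still lives on milk. Its ileal enterocytes take up milk proteins by endocytosis, through receptors such as megalin (Lrp2) and cubilin (Cubn), and digest them in large lysosomes. Sucrase-isomaltase (Sis) and other brush border enzymes for solid food are switched on at weaning, a step that glucocorticoids bring forward. Restraint of a pregnant rodent raises its glucocorticoids, which is why the offspring of such dams are studied for lasting changes in gut and brain.

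Sequencing depth was alike in the 6 libraries, with 20730243 to 22975526 counted reads each, and mitochondrially encoded genes took 3.01% to 4.19% of them. Values are given below as CPM, counts scaled to the size of each library, with TMM factors for composition. A count of 0 in a library allows a level of up to 0.126 to 0.145 CPM (3 counts), which covers counting error only. All 6 libraries carried Xist, the RNA that silences an X chromosome in females, at 416 to 597 CPM, and none of the Y-linked genes Uty, Kdm5d, Ddx3y and Eif2s3y passed 0.243 CPM. Markers of the ileum and of suckling enterocytes were present. Fgf15, the hormone that ileal bile acids induce, stood at 62.1 to 190 CPM, Cubn at 425 to 782 CPM, and the lysosomal protease Ctsl at 1019 to 3568 CPM. The bile acid transporter Slc10a2, which defines the mature ileum, was low throughout at 2.02 to 4.46 CPM.

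1 library stood apart. On a principal component analysis of the 11800 genes with a mean of at least 5 CPM, the first component held 57.8% of the variance and placed control female 3 at 36.5, against -13.2 to 0.85 for the other 5 libraries. The other 5 were not all alike, since a second component held 28.5%. It placed stressed female 1 at -19.3 and control female 1 at -8.85, against 19.3 for control female 2. Of 11337 genes with a mean of at least 5 CPM and a gene symbol that is no clone name, 122 were over 2-fold higher in control female 3 than in each of the other 5 libraries and 41 over 2-fold lower. For each of the other libraries the same counts were 0 or 1. The genes farthest out in this library include several known for position along the small intestine. Fabp1, which binds fatty acids in liver and in duodenal and jejunal enterocytes, ranged from 0.235 to 0.582 CPM in 5 libraries and reached 173 CPM in control female 3. Gata4, which specifies jejunal as opposed to ileal enterocytes, reached 52.2 CPM against 0.336 to 4.17 CPM. Gip, a hormone of upper intestinal endocrine cells, reached 36.8 CPM against 0.941 to 4.22 CPM. Lct, the lactase that digests milk sugar, stood at 2374 CPM against 160 to 483 CPM. Low in the same library were Hoxb9, a Hox gene of posterior position, at 1.34 CPM against 14.7 to 20.8 CPM, and the amino acid transporter Slc6a14 at 6.52 CPM against 60.8 to 111 CPM. Afp, alpha-fetoprotein, stood at 9.64 CPM against 48.3 to 130 CPM elsewhere.

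**Figure D1:**
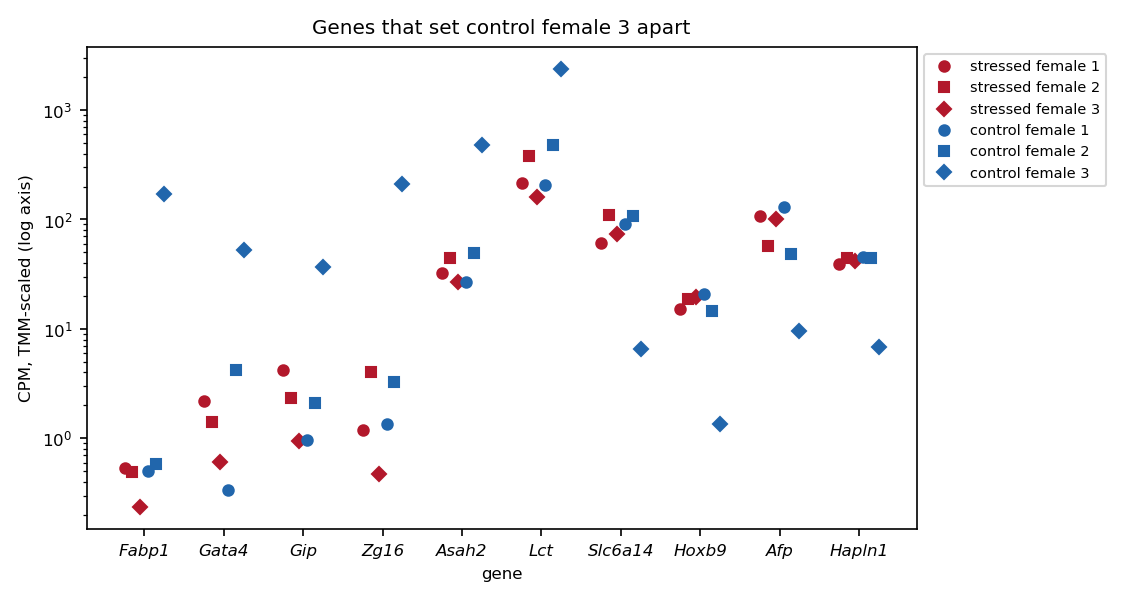
Levels of 10 genes in the 6 female libraries, as TMM-scaled CPM on a log axis, with a point for each pup, red for stressed and blue for control females. Control female 3 (blue diamond) lies above the other 5 libraries in Fabp1, Gata4, Gip, Zg16, Asah2 and Lct and below them in Slc6a14, Hoxb9, Afp and Hapln1.

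Several marker lists followed the same library. The summed level of the upper small intestine list (13 genes in the table) came to 6689 CPM in that pup. It lay between 2600 and 3137 CPM in control females 1 and 2 and between 3223 and 3568 CPM in stressed females. Most of the sum in control female 3 came from Apoa4 (4499 CPM) and Slc40a1 (1100 CPM). Not all members followed, since Cybrd1, at 22.7 CPM there, lay within the range of the other 5 libraries (18.8 to 26.9 CPM). Gcnt1 was lowest there, at 3.93 CPM. Among bile acid genes, Fgf15 was also highest in control female 3, at 190 CPM against 62.1 to 136 CPM, whereas Slc10a2 was lowest in that pup. Exocrine pancreas markers summed to 119 CPM there, against 63.9 and 73.6 CPM in control females 1 and 2 and 58.4 to 72.2 CPM in stressed females. Of these 24 markers, 11 were at 0 in all 6 libraries, among them the trypsinogens Prss1 and Prss2, the lipase Pnlip and the amylase Amy2a5. The chymotrypsinogen Ctrb1 ranged from 0.141 to 0.666 CPM in 5 libraries and stood at 12.5 CPM in this one. Paneth cell markers summed to 6398 CPM against 1953 to 3358 CPM, and macrophage markers to 685 CPM against 481 to 519 CPM. Smooth muscle genes summed to 9036 CPM in this library against 10662 to 11794 CPM. This pup is 1 of the 3 control pups, and list medians below are given with and without it.

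The spread between pups differed between the groups. Over the 11800 genes the median standard deviation of log2 CPM among 3 pups was 0.11 in stressed and 0.18 in control females, and the control pups varied more in 74.4% of genes. A standard deviation above 1 on the log2 scale was found in 8 genes among stressed pups and in 96 among control pups. Pair by pair, the standard deviation of the log2 difference was 0.18 to 0.27 between stressed pups and 0.28 between control females 1 and 2. It was 0.44 and 0.48 for the pairs of control female 3 with the other controls, so that the wider spread of controls came largely with that pup. Across the groups it reached 0.38 between stressed female 1 and control female 2, a pair without control female 3.

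Across all genes no difference between daughters of stressed and of control dams passed the test. Of 15785 genes tested with edgeR's quasi-likelihood test (Benjamini-Hochberg adjustment, threshold 0.05), 0 were called, a share of 0%, with a smallest adjusted p of 0.9996. Neither DESeq2 nor limma-voom called any (0 each). At an unadjusted p under 0.05 edgeR gave 203 genes, 1.29% of those tested, with 116 (0.735%) higher and 87 (0.551%) lower in stressed females. DESeq2 gave 170 and limma-voom 174. The median log2 fold change over all genes was -0.01, with 51.9% of genes below 0 and 48.1% above. All 3 stressed females lay above all 3 control females in 489 genes (3.1%) and below them in 390 (2.47%), together 5.57%.

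What these 6 libraries could show was bounded by the spread. The biological coefficient of variation was 16.5%. The 95% interval of the log2 fold change lay wholly within a 2-fold difference either way for 87.8% of genes, and within a 1.5-fold difference for 65.2%. In data simulated from these libraries, edgeR recovered 96 of 100 genes changed by 4-fold and 65 of 100 changed by 2-fold. Each gene was drawn independently there and no library was set apart, so that these shares need not hold for the real libraries. The authors' deposited table of the same comparison also called 0 of 23219 genes, with 167 genes at p under 0.05, and gave its smallest p, 0.000588, to the same gene as here, Cyr61. Fold changes in the authors' deposited table ran from -0.35 to 0.37 on the log2 scale. For Lct that table gave -0.09 where edgeR gave -2.02 here, so that its fold changes cannot be set beside those below.

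The gene of smallest p was Cyr61 (GRCm38 chr3:145646971-145649985, ENSMUSG00000028195), which encodes a matrix-associated signalling protein that cells secrete on stretch and growth stimulation. It stood at 28.1, 27.6 and 28.6 CPM in stressed females 1, 2 and 3 and at 22.5, 17.6 and 18.8 CPM in control females 1, 2 and 3. The groups did not overlap, and the stressed pups were almost equal to each other. The log2 fold change was 0.51 ± 0.12 (SE), with a 95% interval from 0.24 to 0.79 and an unadjusted p of 0.00250 in edgeR, and the adjusted p was 1.00. Without control female 3 it was 0.48. Values below are listed in the same order, stressed females 1, 2 and 3 and then control females 1, 2 and 3, and log2 fold changes carry their SE.

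Other genes near the top of the ranking were higher in stressed females without passing the test. Nqo1 (chr8:107388225-107403206, ENSMUSG00000003849), a quinone reductase and classic target of the oxidative stress factor NRF2, stood at 33.6, 29.6 and 28.7 CPM against 24.0, 22.2 and 18.4 CPM. The groups lay apart, with a log2 fold change of 0.51 ± 0.13. Dbp, a clock-controlled transcription factor, stood at 8.97, 7.73 and 8.99 CPM against 6.34, 6.11 and 6.04 CPM, a log2 fold change of 0.47 ± 0.14. Ugcg, which makes glucosylceramide, the parent of the glycolipids of the brush border, stood at 171, 188 and 187 CPM against 156, 147 and 138 CPM (0.31 ± 0.10). Rarg, a receptor for retinoic acid, stood at 21.9, 18.9 and 21.4 CPM against 16.7, 15.8 and 16.6 CPM (0.34 ± 0.11). Both were highest in stressed pups with no overlap. Edn1, the vasoconstrictor peptide endothelin, stood at 9.14, 7.09 and 9.84 CPM against 6.88, 5.58 and 5.13 CPM (0.57 ± 0.19), a narrow gap between the nearest pups. Aqp7, a glycerol channel, had 0.48 ± 0.15 and Rrad, a small GTPase of muscle, 0.55 ± 0.17. Thpo, the hormone of platelet formation, was near 1 CPM in controls, at 1.09, 1.07 and 0.816 CPM, and stood at 1.82, 1.63 and 1.74 CPM in stressed pups (0.80 ± 0.24). The remaining genes of this group were Klhl30 (0.68 ± 0.20), AB124611 (1.17 ± 0.36) and Kng2, a kininogen. Kng2 stood at 2.35, 1.76 and 3.20 CPM against 1.34, 1.31 and 0.480 CPM (1.21 ± 0.39, and 0.87 without control female 3, the lowest pup), and its reads could be shared with its close relative Kng1.

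Among the genes that were lower without passing, Cdc25a, the phosphatase that lets cells enter S phase, stood at 70.8, 80.8 and 72.7 CPM against 84.2, 97.3 and 108 CPM, a log2 fold change of -0.37 ± 0.12. Fanci, of the Fanconi pathway of crosslink repair, stood at 2.97, 3.03 and 2.40 CPM against 4.32, 4.03 and 4.22 CPM (-0.58 ± 0.18). In both genes the 3 stressed pups lay below the 3 control pups. Hsph1, a chaperone of the HSP110 family, stood at 43.0, 49.0 and 43.4 CPM against 54.1, 52.3 and 57.8 CPM (-0.28 ± 0.09). Ptger4, the EP4 receptor through which prostaglandin E2 acts on the gut epithelium, stood at 38.1, 41.2 and 42.6 CPM against 48.1, 47.7 and 51.8 CPM (-0.27 ± 0.09). Tppp, which promotes tubulin polymerisation, stood at 42.2, 49.4 and 52.6 CPM against 65.7, 57.5 and 72.9 CPM (-0.44 ± 0.12). These genes too showed no overlap between the groups. Homer1, a scaffold of synapses, had -0.34 ± 0.12, Crybg3 -0.30 ± 0.10 and Tmcc3 -0.52 ± 0.18, which was -0.28 without control female 3. Hist1h2be, an H2B histone gene, had -0.92 ± 0.27, at levels of 0.621 to 1.63 CPM and with near-identical copies among which reads could be split.

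Control female 3 was the highest pup in Cdc25a, Hsph1, Ptger4 and Tppp, and also in the other 3 lower genes. Mptx2, a mucosal pentraxin, stood at 8.26, 10.2 and 9.23 CPM against 11.9, 15.5 and 46.8 CPM. Its log2 fold change of -1.42 ± 0.47 became -0.56 without that pup. Fabp1, described above, gave -7.07 ± 2.32 with all 6 pups and -0.35 without it. Igha, the constant region of IgA, stood at 0.977, 1.45 and 0.518 CPM against 1.43, 2.28 and 3.02 CPM, which overlap (-1.18 ± 0.41, and -0.90 without control female 3). Of the 24 genes named by rank, 22 showed no overlap between the groups, the exceptions being Fabp1 and Igha. Since rank by p favours such genes, this share is a property of the choice, beside 5.57% of all genes.

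**Figure D2:**
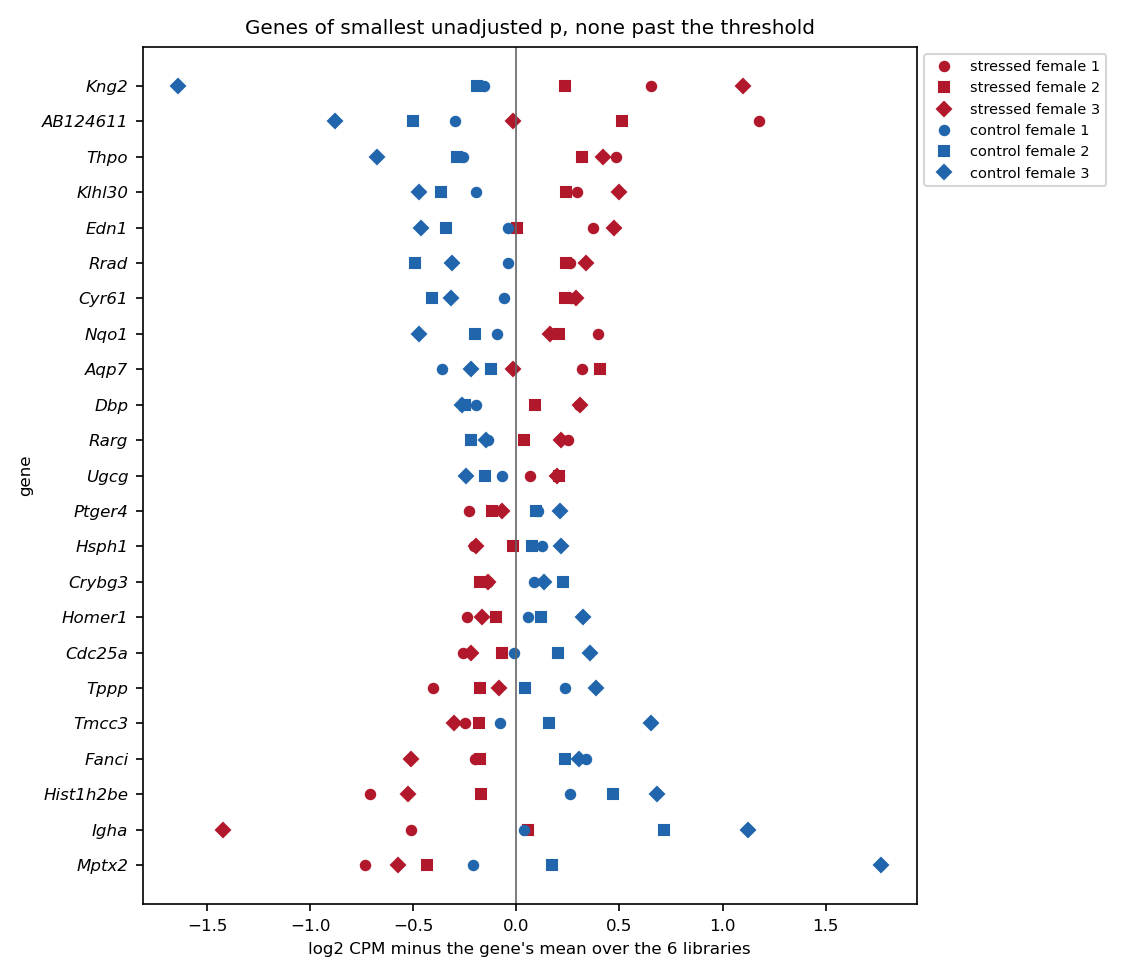
Each gene's log2 CPM minus its mean over the 6 female libraries, with a point for each pup, for 23 of the 24 genes of smallest unadjusted p (Fabp1, at -7.07, is not drawn). Stressed pups (red) and control pups (blue) do not overlap in any of them except Igha, and control female 3 (blue diamond) is far out in Mptx2 and Kng2.

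None of these differences was shown to depend on the sex of the pup. The change in females minus the change in males, tested in a fit of all 12 libraries, was called for 0 of 16102 genes (0%; smallest adjusted p 0.999 in edgeR), with 346 (2.15%) at an unadjusted p under 0.05. That count was 138 without stressed female 1 and 2138 of 16389 (13%) without stressed male 2. In the latter fit 0 genes were called, but the smallest adjusted p in edgeR fell to 0.0903. Each male shares its dam with a female, which the fit of all 12 libraries leaves out. With the dam as a block 0 genes were called and 260 had an unadjusted p under 0.05.

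Gene groups were then read as lists, 49 of which had at least 5 members tested, and 0 of their members were called. Directions are given as counts and medians beside those of all genes (median -0.01, with 51.9% below 0). In 21 lists the median was at least 0.1 away from 0, and in 13 of these it changed sign without control female 3. Leaving out stressed female 3 turned 2 of the 21 medians, those of the plasma cell and mast cell lists. Control female 2 and stressed female 2 turned 1 each, the plasma cell and the red blood cell list, and the other 2 libraries turned none of the 21.

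**Figure D3:**
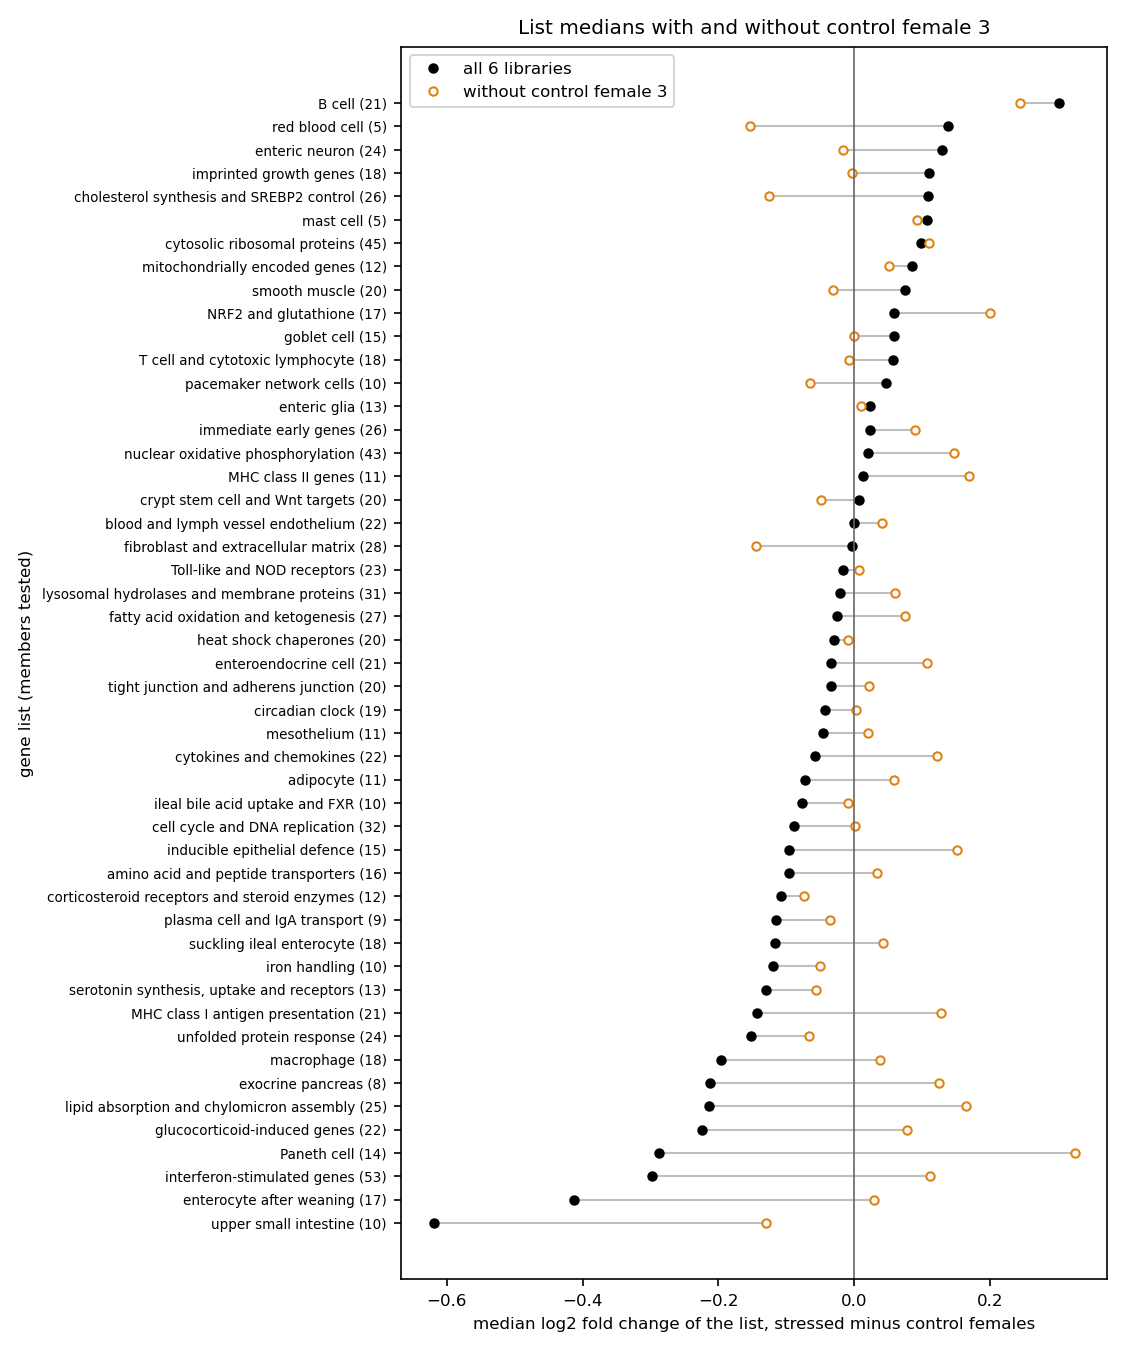
Median log2 fold change of each gene list, stressed minus control females, with all 6 libraries (black) and without control female 3 (open orange), with the number of members tested in brackets. The interferon-stimulated list moves from -0.30 to 0.11, the Paneth cell list from -0.29 to 0.33 and the cholesterol list from 0.11 to -0.13, whereas the B cell (0.30 to 0.24) and ribosomal protein (0.10 to 0.11) lists stay on their side.

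Interferon-stimulated genes, the antiviral programme that cells switch on in response to interferon, lay mostly below 0. That held for 48 of 53 tested members, and the median log2 fold change was -0.30. Promoters of such genes are known for the interferon-stimulated response element, whose core reads GAAA, any 2 bases and GAAA again, or TTTC, any 2 bases and TTTC on the other strand. Copies may overlap, and no other motif was searched. This core was found in the 250 bases before the start of 18 of the 38 members in the RefSeq promoter table (47.4%), against 936 of all 27025 genes of that table (3.46%). The windows of 4 members follow (RefSeq, GRCm38.p6), shown because these genes hold 2 or more copies, some of which overlap, and were all highest in control female 3. They read 5′ to 3′ along the strand of the gene, and the capitals mark the core on either strand.
Ifit3, chr19:34583279-34583528, plus strand: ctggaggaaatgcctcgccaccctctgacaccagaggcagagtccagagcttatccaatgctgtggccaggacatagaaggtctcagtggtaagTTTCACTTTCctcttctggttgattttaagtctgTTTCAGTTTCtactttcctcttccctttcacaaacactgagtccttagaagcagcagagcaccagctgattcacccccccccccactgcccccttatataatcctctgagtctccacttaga
Ifit1, chr19:34640639-34640888, plus strand: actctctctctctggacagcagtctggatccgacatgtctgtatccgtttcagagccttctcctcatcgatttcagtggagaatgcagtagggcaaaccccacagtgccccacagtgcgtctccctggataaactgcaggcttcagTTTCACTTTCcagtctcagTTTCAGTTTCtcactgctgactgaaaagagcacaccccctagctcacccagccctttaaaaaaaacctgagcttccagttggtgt
Ddx60, chr8:61927837-61928086, plus strand: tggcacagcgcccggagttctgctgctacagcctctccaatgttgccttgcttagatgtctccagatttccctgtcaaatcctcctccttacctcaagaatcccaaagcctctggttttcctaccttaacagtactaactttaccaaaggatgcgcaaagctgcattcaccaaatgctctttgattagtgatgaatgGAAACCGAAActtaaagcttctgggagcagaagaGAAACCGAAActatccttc
Isg15, chr4:156200819-156201068, minus strand: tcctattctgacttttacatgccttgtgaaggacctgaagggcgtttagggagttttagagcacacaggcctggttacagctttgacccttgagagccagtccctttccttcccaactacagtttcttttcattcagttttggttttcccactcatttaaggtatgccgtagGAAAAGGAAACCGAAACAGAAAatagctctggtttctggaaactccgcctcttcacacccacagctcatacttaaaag

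In the libraries these genes set 1 control pup against the other 5. Ifit3, which restricts viral RNA together with its relatives, stood at 16.4, 18.2 and 14.5 CPM in stressed females and at 12.5, 16.3 and 92.2 CPM in control females. Ifit1, which binds viral RNA lacking a methylated cap, stood at 212, 233 and 235 CPM against 188, 223 and 396 CPM. Ddx60, a helicase of viral RNA sensing, stood at 34.3, 42.1 and 37.7 CPM against 32.0, 40.7 and 120 CPM. In each of them control female 3 was the highest pup, and the other 2 control pups lay within or below the stressed range. Isg15, a ubiquitin-like modifier, stood at 20.4, 16.9 and 16.5 CPM against 12.6, 13.7 and 66.0 CPM, so that its log2 fold change was -0.78 ± 0.59 with all pups and 0.45 without control female 3. Irf7, the factor that amplifies interferon production, stood at 109, 106 and 112 CPM against 92.7, 105 and 196 CPM.

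Without control female 3 the list leaned the other way, with a median of 0.11 and 39 of 53 members above 0. In 9 of the 53 (17.0%) all 3 stressed pups then lay above both remaining control pups, beside 7.6% of all genes, and in 0 of 53 below, beside 7.7%. With all 6 pups the groups were apart in 0 of the 53, beside 5.57% of all genes. The median deviation of the list from the mean of the libraries was 0.73 in control female 3 and between -0.25 and -0.05 in the other 5. Upper intestinal, Paneth and macrophage markers were high in the same pup by the sums given above, and their part in this result was not tested.

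Antigen presentation genes followed the same pup. Of 21 MHC class I genes 18 lay below 0 (median -0.14), and without control female 3 16 lay above 0 (median 0.13). H2-K1, a classical class I heavy chain, was an exception at 713, 657 and 626 CPM against 624, 535 and 613 CPM, all stressed pups higher. It was the only class I gene apart, 1 of 21 (4.76%, beside 3.1% of all genes). MHC class II genes had a median of 0.01, with 7 of 11 above 0, and of 0.17 without that pup.

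The receptors and enzymes of the glucocorticoid axis differed little. Nr3c1, the glucocorticoid receptor, stood at 189, 231 and 228 CPM in stressed females and at 205, 251 and 207 CPM in control females, a log2 fold change of -0.03 ± 0.13 with overlapping groups. Nr3c2, the mineralocorticoid receptor, stood at 17.0, 22.5 and 22.0 CPM against 20.6, 21.3 and 22.7 CPM (-0.07 ± 0.13). Per length, the mean level over the 6 libraries was 33.9 FPKM for Nr3c1 and 3.54 FPKM for Nr3c2. Hsp90aa1, a chaperone that holds the receptor ready for hormone, had -0.26 ± 0.11, and Fkbp4, a co-chaperone of that complex, -0.11 ± 0.09. Hsd11b2, which inactivates corticosterone, stood at 8.52, 10.8 and 7.11 CPM against 9.06, 9.12 and 5.09 CPM, and Hsd11b1, which regenerates it, at 0.659 to 2.40 CPM. Star, which brings cholesterol into mitochondria for steroid synthesis, was at 2.30 to 5.71 CPM, whereas Cyp11b1, which makes corticosterone, was at 0.048 CPM or less. The list of 12 tested genes had 11 below 0 and a median of -0.11 (-0.07 without control female 3), and 0 of the 12 had groups apart, beside 5.57% of all genes, a share at which a list this short can hold none.

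Targets that glucocorticoids induce were read next. Of 22 genes 17 lay below 0, with a median of -0.22, and without control female 3 15 lay above 0, with a median of 0.08. Tsc22d3 (GILZ), a direct target of the receptor, stood at 52.5, 58.6 and 48.9 CPM against 49.5, 47.5 and 140 CPM. Sgk1, a kinase that controls sodium transport, stood at 118, 102 and 97.2 CPM against 109, 90.4 and 247 CPM. Fkbp5, which feeds back on the receptor, stood at 11.8, 10.03 and 11.1 CPM against 11.5, 11.4 and 25.8 CPM. In all of them control female 3 was the highest pup, and the other 2 control pups overlapped the stressed pups. The clock gene Per1, another target, stood at 26.5, 36.9 and 33.2 CPM against 35.5, 36.8 and 72.8 CPM.

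The metallothioneins Mt1 and Mt2, zinc-binding proteins in the same list, followed another pattern. Mt1 stood at 599, 173 and 370 CPM in stressed females and at 395, 93.7 and 88.9 CPM in control females. Mt2 stood at 213, 55.5 and 120 CPM against 115, 18.0 and 29.0 CPM. Stressed females 1 and 3 and control female 1 were high and the other 3 pups low, so that the groups overlapped, with log2 fold changes of 0.98 ± 0.64 and 1.26 ± 0.70. Mt2 had the highest value in the list.

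Genes of the enterocyte followed control female 3 as well. Of 17 tested genes listed for the enterocyte after weaning, 16 lay below 0 in stressed females (median -0.41), and without that pup 7 of 17 did (median 0.03). Some of them were already well expressed in these suckling pups. Sis stood at 8.26, 14.1 and 10.3 CPM against 11.96, 12.3 and 85.0 CPM. Slc5a1, the glucose transporter of the brush border, stood at 204, 242 and 209 CPM against 196, 238 and 495 CPM. For the 10 tested upper intestinal genes, 10 lay below 0 (median -0.62), and without control female 3 6 of 10 did, with a median of -0.13. Suckling enterocyte genes had 13 of 18 below 0 (median -0.12, and 0.04 without that pup). Among them Lrp2 stood at 8.08, 9.35 and 9.65 CPM against 11.7, 10.6 and 25.4 CPM, all stressed pups lower by a small margin (-0.82 ± 0.32, and -0.30 without control female 3). That is 1 of 18 (5.56%, beside 2.47% of all genes). All stressed pups were higher in 2 of 18 (11.1%, beside 3.1% of all genes), Asl and Scpep1. Fcgrt, the receptor that carries maternal IgG from milk, stood at 753, 881 and 749 CPM against 838, 866 and 2094 CPM.

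Fat handling divided by the same pup. Of 25 genes for uptake, re-esterification and export of dietary fat 21 lay below 0 (median -0.21), and without control female 3 22 lay above 0 (median 0.17), with 7 of 25 (28.0%) above both remaining controls beside 7.6% of all genes. Apoc2, the cofactor of lipoprotein lipase on chylomicrons, stood at 74.4, 56.0 and 34.6 CPM against 50.6, 28.2 and 458 CPM. Acsl3, which activates fatty acids, was the only member apart with all 6 pups, at 187, 188 and 213 CPM against 162, 148 and 83.4 CPM, a log2 fold change of 0.58 ± 0.22 (unadjusted p = 0.032, adjusted p = 1.00 in edgeR). That is 1 of 25, beside 5.57% of all genes, and without control female 3 the log2 fold change of Acsl3 was 0.34. Fatty acid oxidation genes had a median of -0.03, and of 0.07 without control female 3, when 7 of 27 (25.9%) lay above both remaining controls beside 7.6% of all genes. Bile acid genes had a median of -0.08, and of -0.01 without that pup. Fabp6, the ileal bile acid binding protein, stood at 125, 317 and 45.5 CPM against 66.4, 137 and 62.5 CPM, with full overlap.

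Cholesterol synthesis genes, which SREBP2 switches on when sterols are scarce, lay above 0 for 22 of 26 members, and the median was 0.11. Without control female 3 18 of 26 lay below 0, with a median of -0.13. Hmgcs1, which makes the HMG-CoA from which the pathway starts, stood at 194, 230 and 200 CPM against 240, 281 and 126 CPM. Sqle, squalene epoxidase, stood at 61.0, 63.9 and 60.1 CPM against 72.5, 72.4 and 33.4 CPM. In both genes control female 3 was the lowest pup and the other controls were the highest. In 9 of the 26 (34.6%) all 3 stressed pups lay below both remaining control pups, beside 7.7% of all genes, and with all 6 pups 0 of 26 were apart, beside 5.57%.

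Paneth, goblet and defence genes gave no common direction. Of 14 Paneth cell genes, whose products are antimicrobial, 11 lay below 0 (median -0.29), and without control female 3 11 lay above 0 (median 0.33). Lyz1, the Paneth lysozyme, stood at 256, 415 and 236 CPM against 200, 397 and 827 CPM. Defa24, a defensin, stood at 1052, 877 and 618 CPM against 750.2, 532 and 1760.1 CPM. Goblet cell genes had 11 of 15 above 0 and a median of 0.06 (0.00 without that pup), while the mucus lectin Zg16 ranged from 0.471 to 4.07 CPM in 5 pups and reached 211 CPM in control female 3. Lcn2, an iron-binding defence protein, had all stressed pups lower, at 1.15, 1.08 and 0.8002 CPM against 1.38, 1.36 and 2.97 CPM (-0.90 ± 0.37, and -0.43 without control female 3). In its list all stressed pups were lower in 1 of 15 (6.67%, beside 2.47% of all genes) and higher in 0. The median of that list was -0.10, and 0.15 without control female 3. Enteroendocrine genes had a median of -0.03, and of 0.11 with 14 of 21 above 0 without control female 3. Junction genes went from -0.03 to 0.02 and crypt stem cell genes from 0.01 to -0.05.

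B cell genes leaned upward with and without control female 3. Of 21 tested members 18 lay above 0, with a median of 0.30 with all pups and of 0.24 without control female 3, but of 0.00 without stressed female 1. Cd79a, a signalling chain of the B cell receptor and a defining marker, stood at 13.9, 5.78 and 5.27 CPM against 6.71, 4.32 and 3.45 CPM. Stressed female 1 held the highest level, and the groups overlapped. The groups were apart in 0 of the 21 members, beside 5.57% of all genes. T cell genes had 9 of 18 above 0 and a median of 0.06, which was -0.01 without control female 3, and their median deviation was highest in stressed female 1, at 0.32. All stressed pups were lower in 2 of the 18 (11.1%, beside 2.47% of all genes), the interleukin-7 receptor Il7r and the helper T cell marker Cd4, and higher in 0. Macrophage genes had 16 of 18 below 0 (median -0.20, and 0.04 without control female 3). How much lymphoid tissue each piece of ileum held was not tested.

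Ribosomal protein genes formed the list with the most members apart. Of 45 tested genes 43 lay above 0, and their median was 0.10 on the log2 scale. In 11 of the 45 (24.4%) all 3 stressed pups lay above all 3 control pups, beside 3.1% of all genes. Without control female 3 the median was 0.11, and 15 of 45 (33.3%) lay above both remaining controls, beside 7.6%. Leaving out each pup in turn kept the median above 0. Rpl38, a protein of the large subunit, stood at 400.1, 371 and 376 CPM against 356, 313 and 259 CPM (0.31 ± 0.13, and 0.20 without control female 3), and Rps28, of the small subunit, at 520.2, 501 and 473 CPM against 473, 400.2 and 364 CPM (0.27 ± 0.12). Rps7 stood at 858, 747 and 825 CPM against 745, 649 and 737 CPM. The distance between the nearest pups was small in each of them, and summed over the list the stressed libraries stood at 31305, 29476 and 32183 CPM against 29127, 28888 and 28110 CPM. Of the 45 genes 1 had an unadjusted p under 0.05 and 0 were called. Ribosomal protein genes have many processed copies in the genome, among which reads can be split.

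Genes of the respiratory chain had small medians. Of 12 tested genes of the mitochondrial genome 9 lay above 0, with a median between 0.07 and 0.10. The median became -0.01 without stressed female 3, the library with the largest mitochondrial share, and 0.05 without control female 3. All stressed pups were higher in 2 of the 12 (16.7%, beside 3.1% of all genes). mt-Atp6, a subunit of ATP synthase, stood at 71.2, 63.7 and 69.8 CPM against 60.4, 53.3 and 58.6 CPM (0.25 ± 0.09), with no overlap. The other was mt-Co2. These genes averaged 62.8 and 109 CPM over the 6 libraries, beside 4862 CPM for mt-Cytb, and mt-Atp8 was at 0 in all 6. Whether reads of these low genes were split with copies elsewhere in the genome was not tested. The abundant mt-Co1, of complex IV, stood at 12919, 14508 and 17471 CPM against 14211, 15455 and 13456 CPM. Nuclear genes of oxidative phosphorylation had 26 of 43 above 0 and a median of 0.02, and 41 of 43 above 0 and a median of 0.15 without control female 3. In 9 of the 43 (20.9%) all stressed pups then lay above both remaining controls, beside 7.6%, and with all 6 pups in 0 of 43, beside 3.1%.

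Genes of the cell cycle and of the unfolded protein response lay mostly below 0, by small amounts. For the cell cycle list this held only with control female 3. Of 32 cell cycle genes 26 lay below 0, with a median of -0.09, and 16 of 32 without control female 3, with a median of 0.00. In 4 of the 32 (12.5%), Mcm2, Mcm6, Kif11 and Rrm1, all stressed pups were lower, beside 2.47% of all genes. Mcm2, of the helicase that opens DNA for replication, stood at 43.8, 44.5 and 42.0 CPM against 48.1, 49.0 and 52.5 CPM (-0.20 ± 0.09). Rrm1, of ribonucleotide reductase, stood at 59.4, 63.4 and 58.3 CPM against 65.5, 70.0 and 65.7 CPM. Unfolded protein response genes had 21 of 24 below 0 (median -0.15) and 19 of 24 without control female 3 (median -0.07). Hspa5 (BiP), the main chaperone of the endoplasmic reticulum, stood at 714, 706 and 635 CPM against 750.1, 776 and 811 CPM, with no overlap. All stressed pups were lower in 2 of the 24 (8.33%, beside 2.47% of all genes) and higher in 0. Heat shock chaperones had 11 of 20 below 0, near the 51.9% of all genes, and a median of -0.03 (-0.01 without control female 3).

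NRF2 and glutathione genes had a median of 0.06, with 9 of 17 above 0, which became 0.20, with 16 of 17 above 0, without control female 3. All stressed pups were higher in 3 of the 17 (17.6%, beside 3.1% of all genes), Nqo1, Gsta4 and Gsta1. Gsta4, a glutathione transferase for lipid peroxides, stood at 10.2, 9.13 and 9.70 CPM against 8.14, 7.47 and 7.24 CPM (0.34 ± 0.13). Gsta1 stood at 7.46, 4.79 and 6.92 CPM against 4.62, 4.41 and 2.11 CPM, and shares close sequence with its paralogs. The clock list, which holds Dbp, had a median of -0.04 (0.00 without control female 3), and immediate early genes, which hold Cyr61, had a median of 0.02 (0.09 without it). Among the latter Fos ranged from 6.25 to 9.99 CPM in 5 pups and reached 33.3 CPM in control female 3.

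The gut wall and its nerves gave small medians. Smooth muscle genes had 14 of 20 above 0 (median 0.08, and -0.03 without control female 3), and enteric glia genes had a median of 0.02 (0.01 without it). Endothelial genes went from 0.00 to 0.04. Fibroblast genes went from -0.00 to -0.14, and 6 of 28 (21.4%) then lay below both remaining controls, beside 7.7% of all genes. Enteric neuron genes had 19 of 24 above 0 and a median of 0.13, and 12 of 24 and -0.02 without control female 3. Hand2, a transcription factor of enteric neurons, stood at 18.0, 17.0 and 20.9 CPM against 17.2, 15.6 and 12.04 CPM, with overlap. Serotonin genes had 10 of 13 below 0 and a median of -0.13 (-0.06 without that pup). Maob, which degrades amines, stood at 136, 140.4 and 99.2 CPM against 118, 162 and 510.1 CPM. Tph1, the enzyme that makes gut serotonin, was at 2.77 to 6.96 CPM with full overlap.

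**Figure D4:**
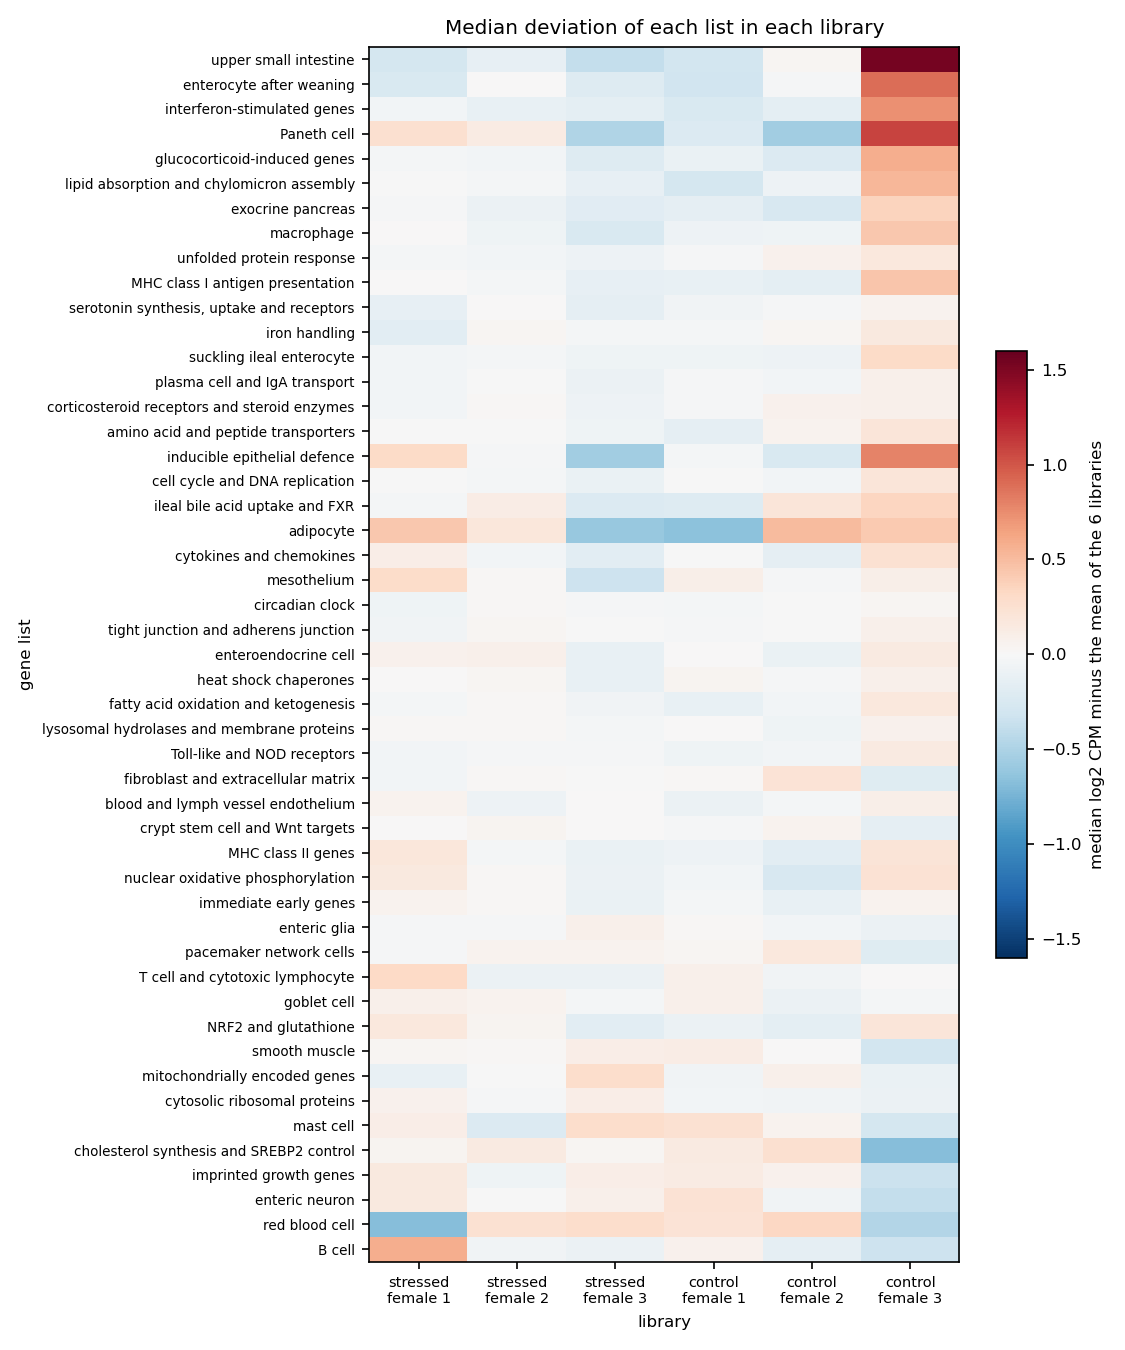
Median deviation of each gene list in each of the 6 female libraries, as log2(CPM + 0.5) minus the gene's mean over the 6 libraries, red for higher and blue for lower. The column of control female 3 carries the deepest colours (0.73 for interferon-stimulated genes, 1.53 for upper small intestine), and adipocyte genes are low in stressed female 3 (-0.61) and control female 1 (-0.66).

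Some genes differed widely between pups within both groups, in sets that were not divided by the stress of the dam. In 8 of 11 tested adipocyte genes stressed female 3 and control female 1 lay below the other 4 pups. The 3 that did not follow were Pparg, the master regulator of fat cells, and the lipid droplet genes Cidea and Cidec. Adipoq, the fat hormone adiponectin, stood at 17.8, 10.8 and 2.78 CPM in stressed females and at 2.56, 15.0 and 17.6 CPM in control females. Cfd, adipsin, stood at 20.7, 11.3 and 3.58 CPM against 2.06, 21.1 and 21.0 CPM. Plin1, which coats lipid droplets, stood at 16.4, 11.2 and 2.59 CPM against 3.27, 17.1 and 11.4 CPM. Scd1, a desaturase abundant in fat that is no member of the list, stood at 109, 133 and 28.7 CPM against 22.8, 165 and 114 CPM. Each gene had the same low pups, 1 in each group. The summed adipocyte list was 241 and 217 CPM in these pups against 332 to 433 CPM in the other 4, and how much fat was left on each piece of ileum was not tested. Red blood cell genes had their lowest median deviation (-0.68) in stressed female 1, where Alas2, the first enzyme of haem synthesis in erythroid cells, stood at 1.73 CPM against 4.17 to 7.91 CPM. Hbb-bt was lowest there too, at 6.39 CPM. The more abundant Hbb-bs and Hba-a1 were instead lowest in control female 3, at 67.7 and 41.3 CPM, against 85.9 and 66.0 CPM in stressed female 1. Hba-a2 was low in both, at 6.09 and 6.13 CPM.

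**Figure D5:**
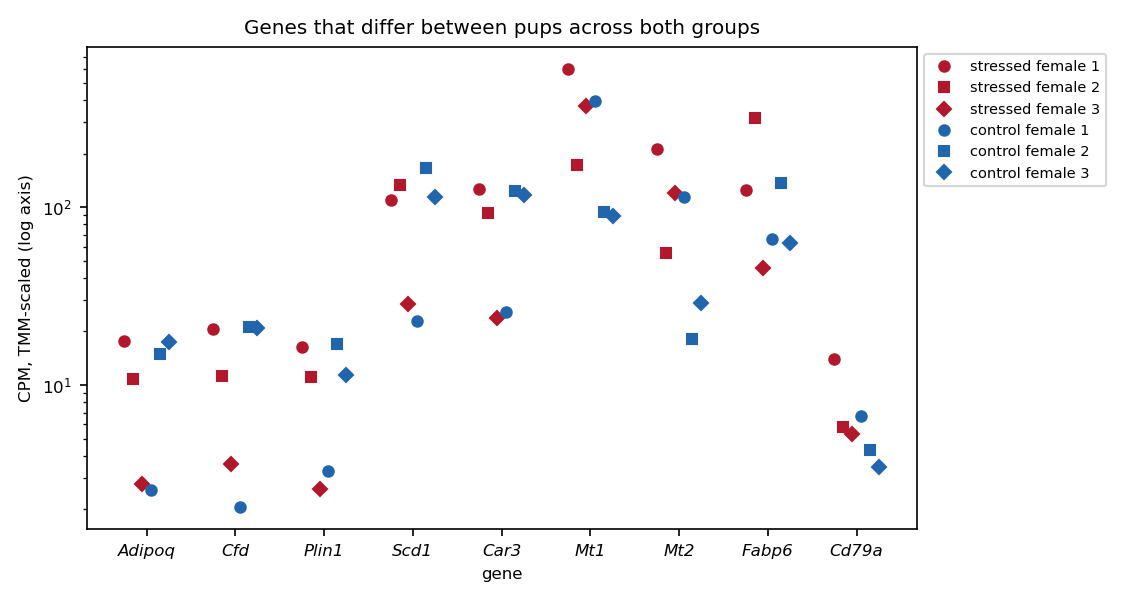
Levels of genes that varied between pups, as TMM-scaled CPM on a log axis, with a point for each pup, red for stressed and blue for control females. Adipoq, Cfd, Plin1, Scd1 and Car3 are low in stressed female 3 (red diamond) and control female 1 (blue circle), Mt1 and Mt2 are high in those pups and in stressed female 1, and Cd79a is highest in stressed female 1.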

How the data were processed

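For 35275 genes the authors deposited raw read counts and, in another table, FPKM, that is the counts scaled to gene length and library size. FPKM served only to compare 2 genes. Builds in the submitters' processing notes are mm10 and GRCm38, and the tools there are edgeR 3.16.5, DESeq2, HTSeq 0.6.1, TopHat and STAR 2.5. The annotation release and strand setting are not given in the sources used here. The authors' table of comparisons holds, per the file headers, their log2 fold changes and a p-value and adjusted p-value for each gene.

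The 6 female libraries alone were fitted by edgeR 4.0.16 under R 4.3.3 (TMM, quasi-likelihood test, filterByExpr defaults, 15785 genes kept, Benjamini-Hochberg, threshold 0.05). DESeq2 1.42.0 and limma 3.58.1 (voom) were alternatives. The SE is the log2 fold change divided by the root of F. The difference between the sexes came from a fit of 12 libraries in 4 groups. The fit was tested on simulated data. As the pups are of separate litters, the litter is the replicate. Genes named were the 12 higher and 12 lower of smallest unadjusted p with a mean of at least 1 CPM and no clone name, in each list the 3 of highest mean and the 2 of smallest p, and for each library the 6 highest and 6 lowest against the others. Some genes are not reported here. Others were picked after their values were seen: those on marker presence, pups and single roles. Some list members appear in the deposited table under older symbols and were matched by identifier. Members and lists were chosen with earlier results of these data known. As 52 symbols belong to more than 1 identifier, identifiers define the genes.

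Same-numbered stressed and control pups come from different dams, so that by label the numbers do not pair the groups. The correlations of their deviations were 0.28, 0.21 and -0.50, and those of pups of unlike number ran from -0.66 to 0.61. With 3 pups in each group these values decide nothing about shared handling by number, which was not tested. Counts of non-overlapping genes without control female 3 were added after seeing the data.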

Additional observations from a re-analysis of the deposited data

How the results depend on the processing

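0 genes were called in females and 0 for the difference between the sexes under every alternative run: median-ratio size factors, DESeq2, limma-voom, a minimum mean of 1 CPM, no filter, the replicate block, each library left out in turn and, for females, 12 libraries in 4 groups. Counts at an unadjusted p under 0.05 moved more. In females the 203 genes became 417 of 23269 with no filter, where more genes were tested, and 48 when the 12 libraries shared 1 estimate of spread. They ran from 78 (without stressed female replicate 1) to 813 (without control female replicate 1) with a library left out, with 100 without stressed female replicate 3. For the difference the 346 genes ran from 138 (without stressed female replicate 1) to 2138 (without stressed male replicate 2, smallest adjusted p 0.0903 in edgeR). They numbered 738 and 716 without control male replicates 1 and 3, 141 without control female replicate 2, 197 without stressed female replicate 3, and 166 and 140 without stressed male replicates 1 and 3. With the replicate block there were 304 genes in females and, with the dam that littermates share as the block, 260 for the difference, and no call was gained. The 24 genes named by rank kept their direction in all 312 refitted values, and 22 of them had an unadjusted p under 0.05 without control female replicate 3. As these genes were ranked by p in the same libraries, both counts are largely a property of the choice. Genes apart numbered 1200 higher and 1215 lower once that library was left out, since fewer pups then have to separate. List medians changed sign in 29 of 49 lists without control female replicate 3, in 12 without stressed female replicate 3, and in 8 or fewer under every other alternative run. The cause of these shifts was not tested. In simulated data 65 of 100 changes of 2-fold were recovered, and neither smaller changes nor a library set apart were simulated.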

Other observations

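With control female 3 set aside, a fit that was planned, the genes of smallest unadjusted p were other ones, chosen here after their values were seen, and 0 of 16021 genes were called in edgeR (smallest adjusted p 0.980). Efna1, an ephrin ligand of epithelial cells, stood at 79.8, 66.9 and 66.3 CPM in stressed females and at 47.7 and 47.5 CPM in control females 1 and 2, a log2 fold change of 0.58, but control female 3 stood at 76.8 CPM. Pappa2, a protease that frees insulin-like growth factors from their binding proteins, stood at 1.42, 1.81 and 1.22 CPM against 3.36 and 3.74 CPM (-1.25), with control female 3 at 1.39 CPM. Fabp2, the intestinal fatty acid binding protein, stood at 243, 213 and 199 CPM against 148 and 161 CPM (0.50), with control female 3 at 672 CPM. In all of them control female 3 lay inside or beyond the range of the stressed pups, and the log2 fold change of Fabp2 was -0.58 with all 6 pups. Gstp2, a glutathione transferase, kept its groups apart with all 6 pups, at 45.2, 44.7 and 40.4 CPM against 32.6, 32.6 and 39.8 CPM (0.31 ± 0.11).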
